A study of Mus musculus with 10 samples.

Results

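Myeloid C-type lectin receptors are surface proteins with which macrophages, dendritic cells and other myeloid cells bind sugars and glycolipids of microbes, of dying cells and of the host's own glycoproteins. The 10 genes described here were chosen by symbol: Clec7a, Clec4n, Clec4d, Clec4e, Clec4a1, Clec4a2, Clec4a3, Clec10a, Mgl2 and Clec12a. Of these, 9 were measured, among 26173 genes in all, and Clec7a, the gene of the beta-glucan receptor Dectin-1, is not analysed here.

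The receptors fall into those that activate the cell and those that restrain it. Dectin-2 (Clec4n), MCL (Clec4d) and Mincle (Clec4e) have no signalling tail of their own and pair with the adaptor FcR gamma (Fcer1g), whose activation motif recruits the kinase Syk. Syk in turn acts through Card9, Bcl10 and Malt1 on NF-kappaB and so on cytokine genes. The DCIR gene Clec4a2 and the MICL gene Clec12a encode receptors with an inhibitory motif in the cytoplasmic tail, which recruits phosphatases such as SHP-1 (Ptpn6). Clec10a and Mgl2 encode the galactose-type lectins MGL1 and MGL2, known from subsets of macrophages and dendritic cells. Alveolar macrophages live in the airspace and meet inhaled fungi and mycobacteria through receptors of these kinds.

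RNA was sequenced from cells labelled as alveolar macrophages of C57BL/6 mice, all labelled female and 16 weeks old, to learn how the loss of Bach2, a transcriptional repressor of lymphocytes and macrophages, bears on these cells. In mice with floxed Bach2 and the Cre driver CD4cre, which is active in T cells, so that the macrophages need not have lost Bach2 themselves, cells with an aberrant surface marker phenotype (labelled KO abnormal, here the aberrant-marker library) and cells with surface markers like those of controls (KO normal, the normal-marker library) were profiled apart. The labels call their reference "Bach2-floxed CD4cre control" and do not say which alleles it carries (the conditional control library). The other groups were Bach2 germline KO mice, which lack Bach2 in every cell, and WT mice. Both fractions of the conditional knockout were chosen by surface markers that the labels do not name, so levels of surface receptors in them may follow from that choice. Nothing in the labels says whether mice were pooled.

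Each group had 2 samples, but over most genes these differed by little more than the sampling noise. Run pairs of the 5 groups correlated at 0.993 to 0.998 in log2(FPKM + 1), against 0.685 to 0.853 over the 40 pairs of samples from different groups, and of genes at 1 to 3 FPKM only 0.0474% to 0.381% were at exactly 0 in the other sample of the group, against 14.0% to 21.0% between groups. They are treated as 2 runs of 1 library, so every difference below is between libraries, without a replicate check and without a p-value. FPKM are fragment counts relative to transcript length and library depth, and the low values put that depth at about 7.41 M to 9.33 M fragments a run. Calls follow a rule of size: 2 libraries had to lie at least 4-fold apart in FPKM + 1, in their means and in each pairing of a run of one with a run of the other, and the higher mean had to reach 20 FPKM. Because 1 FPKM is added, log2 differences are too small for low genes. Bach2 was hardly detected in any library (0.0571 FPKM or less), so it does not check the genotypes. Sex-linked genes went against the labels in the germline knockout and wild-type libraries, with the Y-linked gene Eif2s3y at 39.9 and 60.8 FPKM, while Xist was present in the 3 libraries of the conditional line. Of 19 measured alveolar macrophage markers, 16 were at 1 FPKM or more in the aberrant-marker library, 19 in the normal-marker, 19 in the conditional control, 16 in the germline knockout and 19 in the wild-type library.

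The 9 receptors spanned levels from 491 FPKM to none. Together they came to 601 FPKM in aberrant-marker cells, 908 in the normal-marker and 830 in the conditional control library, and to 394 FPKM in the germline knockout against 859 in the wild type. Clec4n made up 50.1% to 57.2% of that sum in the normal-marker and both control libraries. It made up 16.1% in the aberrant-marker library, where Mgl2 held 47.4%, and 22.7% in the germline knockout, where Clec4a3 held 46.5%. The set was thus led by a different receptor in each knockout library with a low Clec4n level. Fewer cells of a type and less RNA of a gene per cell cannot be told apart in bulk RNA of this kind.

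**Figure D1:**
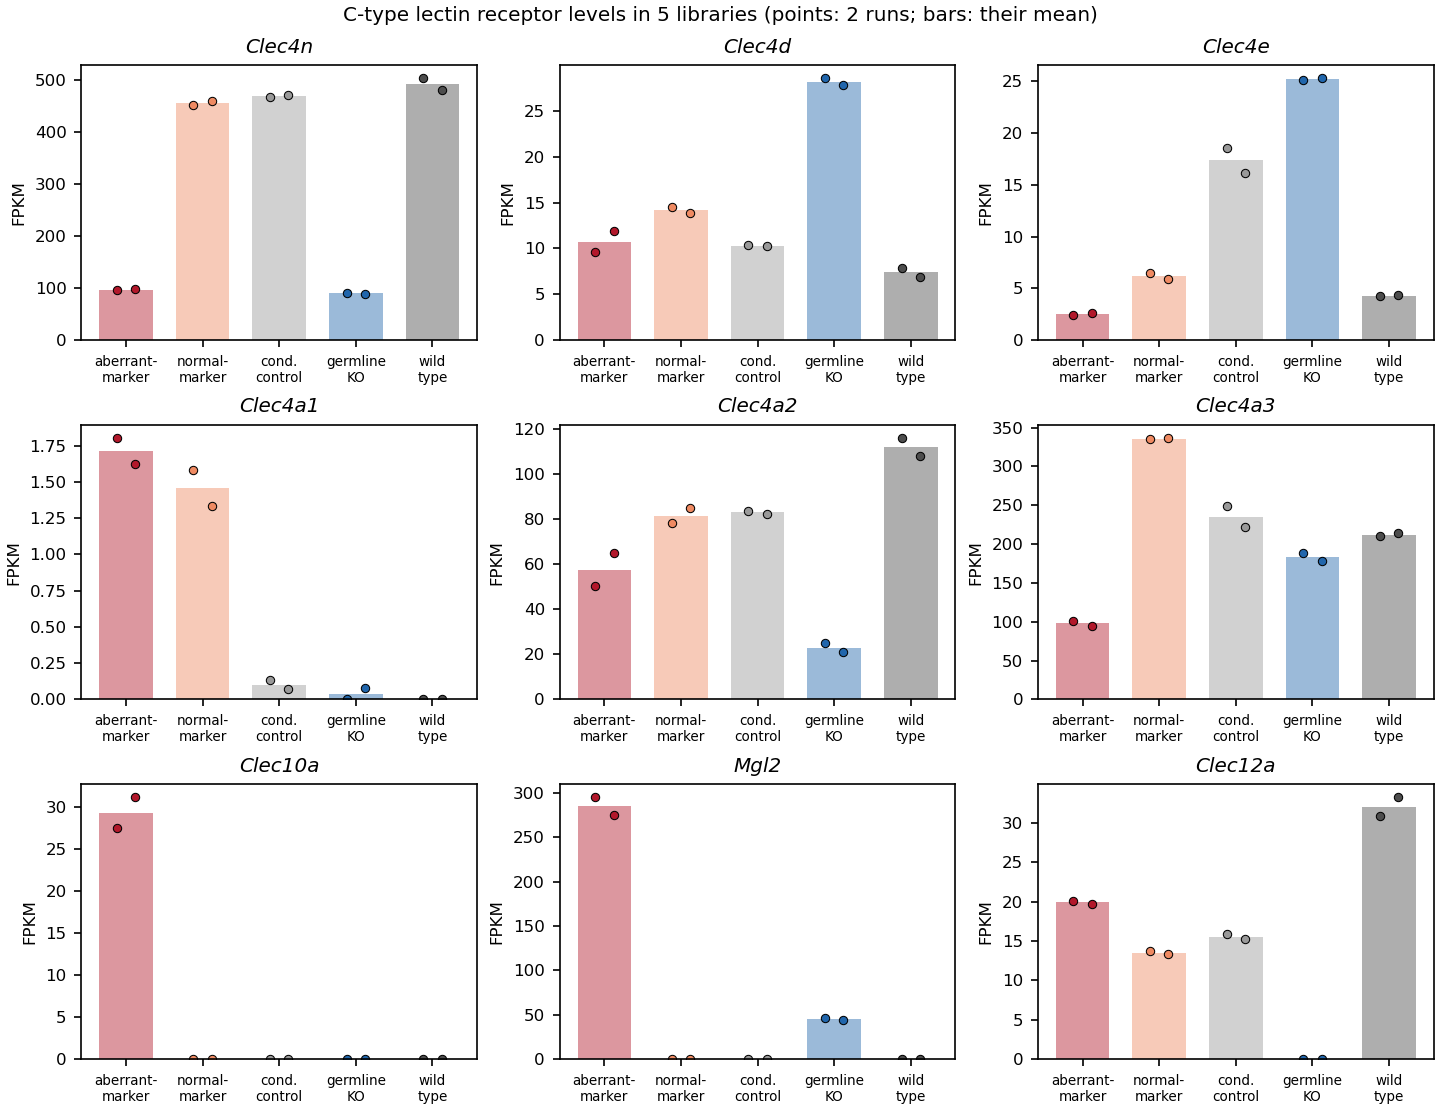
Levels of the 9 measured receptors (y axis, FPKM, a separate scale for each gene) in the aberrant-marker, normal-marker, conditional control, germline knockout and wild-type libraries (x axis). Points are the 2 sequencing runs of each library and bars their mean; Clec4n stood at 88.9 to 97.9 FPKM in the aberrant-marker and germline knockout libraries and at 450.5 to 502.5 FPKM in the others, and Clec10a was present in the aberrant-marker library alone.

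Clec4n (Entrez 56620), which encodes Dectin-2, a receptor for mannose-rich fungal and mycobacterial glycans, was the most abundant of the receptors in the normal-marker and both control libraries. Its runs stood at 95.1 and 97.9 FPKM for aberrant-marker cells, 450.5 and 459.1 FPKM in the normal-marker library and 466.2 and 470.8 FPKM in the conditional control. In the other line they stood at 89.6 and 88.9 FPKM in the germline knockout, against 502.5 and 479.4 FPKM in the wild type. The 5 libraries thus formed a low pair, the aberrant-marker and germline knockout libraries, and a high trio, with no run between 97.9 and 450.5 FPKM. Within each of these sets the libraries lay close together, with means of 96.5 and 89.3 FPKM in the low pair and 454.8 to 490.9 FPKM in the high trio, though the runs of neighbouring libraries did not overlap. Clec4n was called lower in the aberrant-marker library than in the conditional control, by 4.85-fold (log2 difference -2.27), and lower in the germline knockout than in the wild type, by 5.50-fold (-2.45). The normal-marker library differed from the conditional control by -0.04 and the wild type from the conditional control by 0.07 on the log2 scale.

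The transcripts of Clec4n did not fall alike. The table held 3 of them: NM_020001.2, with 6 coding exons, and 2 shorter ones that each lack 1 of these. NM_001190321.1 lacks the third coding exon, a stretch of 102 bases that keeps the reading frame and shortens the coding sequence to 525 bases, against 627 in the full form. That exon is printed because it is what tells the 2 main forms apart; it lies at chr6:123232093-123232194 on the plus strand of GRCm38, is coding throughout, and was read from the GENCODE M21 transcript matched to NM_020001.2.
Clec4n coding exon 3: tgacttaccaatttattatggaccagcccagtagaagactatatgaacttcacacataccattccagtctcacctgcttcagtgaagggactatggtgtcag
The full form was at 41.0 and 35.1 FPKM in the aberrant-marker, 301 and 288 in the normal-marker and 319 and 345 FPKM in the conditional control library, and at 39.99 and 31.8 FPKM in the germline knockout, against 332 and 339 FPKM in the wild type. The form without the third coding exon was at 53.9 and 55.5 FPKM in the aberrant-marker, 149.6 and 152.1 in the normal-marker and 125.9 and 112.6 FPKM in the conditional control library, and at 49.2 and 56.6 FPKM in the germline knockout, against 144.3 and 130.7 FPKM in the wild type. The full form was thus 8.72-fold lower in the aberrant-marker library than in the conditional control, and the short form 2.18-fold lower. Between germline knockout and wild type the ratios were 9.36-fold and 2.60-fold, again lower in the knockout. As a share of all Clec4n FPKM, the full form made up 35.9% and 43.1% in the aberrant-marker runs and 35.7% and 44.6% in the germline knockout runs. It made up 62.7% to 73.2% in the 6 runs of the other libraries, so the shares did not overlap. The third form, NM_001190320.1, which lacks the second coding exon, varied widely between runs of 1 library (0.265 and 7.26 FPKM in the aberrant-marker library, 0.182 and 19.1 FPKM in the normal-marker library). These shares are the quantifier's division of reads among forms that are alike over most of their length, and reads across the skipped exon were not examined here.

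**Figure D2:**
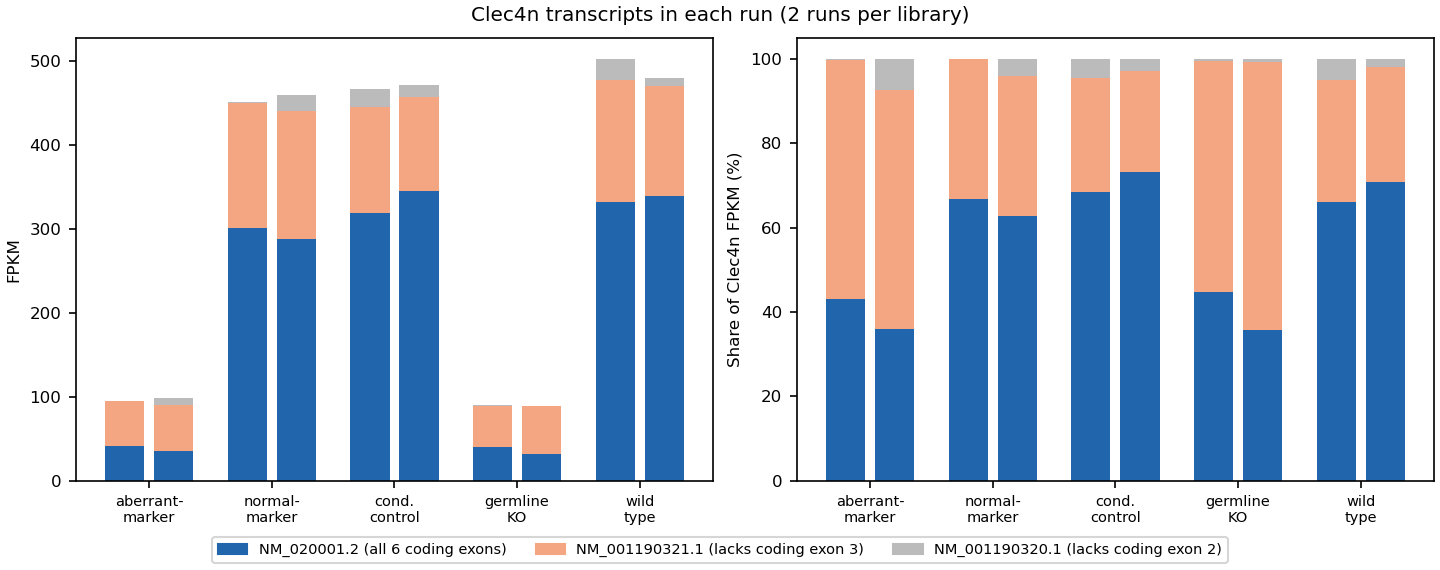
Levels (left, FPKM) and shares (right, % of Clec4n FPKM) of the 3 Clec4n transcripts in each of the 2 runs of the aberrant-marker, normal-marker, conditional control, germline knockout and wild-type libraries. The full form (blue) made up 35.7% to 44.6% of Clec4n in the aberrant-marker and germline knockout runs and 62.7% to 73.2% in the others.

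Clec4e (Entrez 56619), the gene of Mincle, which binds trehalose dimycolate of mycobacteria and a protein released by dying cells, did not follow Clec4n. Its runs were at 2.39 and 2.65 FPKM in the aberrant-marker, 6.45 and 5.91 in the normal-marker and 18.6 and 16.2 FPKM in the conditional control library, and at 25.1 and 25.3 FPKM in the germline knockout, against 4.21 and 4.36 FPKM in the wild type. The 5 libraries had no overlap, with the germline knockout highest and the aberrant-marker library lowest. Clec4e was called higher in the germline knockout than in the wild type, by 5.88-fold (log2 difference 2.31). It was 6.89-fold lower in the aberrant-marker library than in the conditional control (-2.38), but with 17.4 FPKM in the control it missed the floor of 20 FPKM and was not called. The 2 control libraries themselves were 4.05-fold apart, 4.29 FPKM in the wild type and 17.4 FPKM in the conditional control (log2 difference -1.80, not called). With the reference libraries exchanged, the log2 difference was 0.51 for the germline knockout and -0.59 for the aberrant-marker library, neither of them called, so the size of both differences depended on the control.

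Clec4d (Entrez 17474) encodes MCL, which binds the same mycobacterial glycolipid and forms a complex with Mincle. Its levels were 9.58 and 11.9 FPKM in the aberrant-marker, 14.5 and 13.9 in the normal-marker and 10.3 and 10.2 FPKM in the conditional control library, and 28.6 and 27.8 FPKM in the germline knockout, against 7.89 and 6.91 FPKM in the wild type. The germline knockout stood highest, as for Clec4e, and the aberrant-marker and conditional control runs overlapped. The germline knockout value was 3.81-fold that of the wild type (log2 difference 1.80), just short of the 4-fold threshold. The 2 RefSeq entries of Clec4d exchanged places between libraries. NM_001163161.1 made up 51.4% and 52.1% of Clec4d in the aberrant-marker runs, 18.3% and 4.40% in the normal-marker runs and 17.0% and 14.3% in the conditional control runs. It made up 3.36% and 10.0% in the germline knockout runs, against 61.5% and 72.2% in the wild-type runs. The 2 entries are of equal length (1323 bases), and their shares are the quantifier's division of reads, unsteady between runs of the normal-marker and germline knockout libraries. With the entry of the highest mean level alone, NM_010819.4, Clec4d was called higher in the germline knockout too, at 27.6 and 25.0 FPKM, against 3.04 and 1.92 FPKM in the wild type.

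Clec4n, Clec4d and Clec4e lie side by side on chromosome 6. The promoters of the last 2, the 250 bases before each start in RefSeq's table for GRCm38.p6, are printed because both genes were highest in the germline knockout; those of Clec4n and Clec10a are not printed. Capitals mark matches, on either strand, to GAGGAA, a core of PU.1 sites, and to TTGCNNAA, a core of C/EBP sites; TGANTCA, a core of AP-1 and MAF recognition sites, which BACH2 binds, was also searched. The Clec4d window is chr6:123261857-123262106 on the plus strand and the Clec4e window is chr6:123289872-123290121 on the minus strand.
Clec4d promoter: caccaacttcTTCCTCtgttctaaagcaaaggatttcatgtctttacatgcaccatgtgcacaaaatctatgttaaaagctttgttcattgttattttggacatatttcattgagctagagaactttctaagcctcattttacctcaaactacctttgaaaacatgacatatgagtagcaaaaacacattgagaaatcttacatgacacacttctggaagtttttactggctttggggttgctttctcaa
Clec4e promoter: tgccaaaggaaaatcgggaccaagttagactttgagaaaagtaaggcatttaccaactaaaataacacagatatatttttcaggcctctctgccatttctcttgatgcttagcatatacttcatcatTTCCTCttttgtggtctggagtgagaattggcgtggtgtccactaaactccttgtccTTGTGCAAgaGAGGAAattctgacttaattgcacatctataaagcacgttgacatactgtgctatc
Counted from the start, the Clec4e window held GAGGAA at -123 to -118 on the reverse and at -56 to -51 on the forward strand, and TTGCNNAA at -66 to -59, without overlap. The Clec4d window held GAGGAA at -240 to -235 on the reverse strand. The table held 10 promoters of 8 of the receptor genes, Clec7a included, since some genes have more than 1 start. GAGGAA was in 8 of these 10, against 23.3% of 32851 promoters of the same length. TTGCNNAA was in those of Clec4e and Clec12a (9.56% of promoters) and TGANTCA in that of Clec12a alone (6.75%). These matches are letters in a window and not evidence of binding.

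Clec4a3 (Entrez 73149), a gene of the DCIR family, was the second most abundant receptor in the normal-marker and control libraries. Its runs were at 101.6 and 94.2 FPKM in the aberrant-marker, 335.0 and 336.9 in the normal-marker and 248.5 and 221.7 FPKM in the conditional control library, and at 188.1 and 178.1 FPKM in the germline knockout, against 210.4 and 213.9 FPKM in the wild type. No 2 libraries overlapped, with the normal-marker library highest and the aberrant-marker library lowest. The aberrant-marker library was 2.40-fold below the conditional control (log2 difference -1.26) and 3.43-fold below the normal-marker library (-1.77). The germline knockout differed from the wild type by -0.21. None of these was called.

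Clec4a2 (Entrez 26888), the gene of DCIR, an inhibitory receptor of dendritic cells and macrophages, was at 50.1 and 65.0 FPKM in the aberrant-marker, 78.2 and 84.6 in the normal-marker and 83.3 and 82.3 FPKM in the conditional control library. In the other line it was at 24.9 and 21.1 FPKM in the germline knockout, against 115.9 and 107.6 FPKM in the wild type. The lowest library was the germline knockout and the highest the wild type, and the normal-marker and conditional control runs overlapped. Clec4a2 was called lower in the germline knockout than in the wild type, by 4.86-fold (log2 difference -2.23), and differed by -0.52 between the aberrant-marker and conditional control libraries. Against the conditional control the germline knockout difference was -1.81, under the threshold. Clec4a2 shares 114 of its 2959 windows of 50 bases (3.85%) with Clec4a4 and 68 (2.30%) with Clec4b1, so a small part of its reads could be divided among these genes.

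Clec4b1 lies beside Clec4a2 and encodes DCAR, an activating relative that pairs with FcR gamma. It was at 4.39 FPKM in the aberrant-marker, 38.5 in the normal-marker and 59.0 FPKM in the conditional control library, and at 8.24 FPKM in the germline knockout, against 76.5 FPKM in the wild type. It was called lower in both the aberrant-marker library (log2 difference -3.48 from the conditional control) and the germline knockout (-3.07 from the wild type). Clec4a1 (Entrez 269799), the first gene of the same cluster, was low everywhere. It was at 1.80 and 1.62 FPKM in the aberrant-marker, 1.58 and 1.33 in the normal-marker and 0.137 and 0.0694 FPKM in the conditional control library, and at 0 and 0.0761 FPKM in the germline knockout, against runs both listed at 0 in the wild type. With 1 read worth 0.0688 to 0.0866 FPKM for this transcript, the conditional control held 1 or 2 reads a run, and no fold is given.

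Clec12a (Entrez 232413), the gene of MICL, an inhibitory receptor for uric acid crystals of dead cells, was at 20.1 and 19.7 FPKM in the aberrant-marker, 13.7 and 13.4 in the normal-marker and 15.9 and 15.2 FPKM in the conditional control library. In the germline knockout it was listed at 0 in 1 run and at 0.0536 FPKM in the other, about the worth of 1 read (0.0428 to 0.0539 FPKM), against 30.8 and 33.2 FPKM in the wild type. The germline knockout was the only library without the transcript beyond about 1 read. Whether the transcript was missing from the cells or only from this 1 amplified library was not tested. The difference from the wild type was -5.01 on the log2(FPKM + 1) scale and was called; it is no bound, because the knockout value is at the limit of detection. Against the conditional control, where the gene is under the floor of 20 FPKM, the difference was -4.01 and was not called. The wild type was 2.06-fold above the conditional control (1.00, not called), and the aberrant-marker library was 1.28-fold above it (0.34) but below the wild type (-0.66).

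Mgl2 (Entrez 216864) and Clec10a (Entrez 17312) were absent or near absent from the normal-marker and both control libraries and present in the aberrant-marker library. Mgl2 reached 295.3 and 275.3 FPKM there, the highest level of the 9 receptors in that library. It was under 0.01 FPKM in every run of the normal-marker and conditional control libraries, and at 46.2 and 43.9 FPKM in the germline knockout, against 0.348 FPKM and a run listed at 0 in the wild type. Clec10a was at 27.5 and 31.1 FPKM in the aberrant-marker library, and was listed at 0 in the normal-marker, conditional control and wild-type runs and far under 1 read in the germline knockout. Both genes were called higher in the aberrant-marker library than in the conditional control (log2 differences 8.16 and 4.92 on the log2(FPKM + 1) scale, which against values at or near 0 are no measure of fold). Mgl2 was called higher in the germline knockout than in the wild type (5.29). The germline knockout thus held Mgl2 without detectable Clec10a, whereas the aberrant-marker library held both.

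The 2 genes are neighbours on chromosome 11 and much alike in coding sequence, so how far reads of one can pass for the other matters here. Their aligned coding sequences match at 835 of 912 bases (91.56%), and 242 windows of 50 bases are common to both transcripts, which is 13.45% of the windows of Mgl2 and 8.634% of those of Clec10a. The most alike stretch of 90 coding bases is the same in both genes (chr11:70135777-70135945 in Mgl2 and chr11:70169315-70169483 in Clec10a, GRCm38, plus strand, each spanning an intron).
Shared by Mgl2 and Clec10a: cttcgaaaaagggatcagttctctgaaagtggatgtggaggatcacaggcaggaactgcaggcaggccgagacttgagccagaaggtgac
The least alike stretch of 90 coding bases differs at 27 of them, given in capitals (chr11:70136952-70137041 in Mgl2 and chr11:70170449-70170538 in Clec10a), and reads from such stretches can be told apart.
Mgl2, least alike: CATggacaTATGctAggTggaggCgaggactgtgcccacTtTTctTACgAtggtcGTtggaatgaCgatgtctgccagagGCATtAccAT
Clec10a, least alike: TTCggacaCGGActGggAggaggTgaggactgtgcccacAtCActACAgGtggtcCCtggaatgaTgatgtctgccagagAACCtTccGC
The value of each gene is therefore in part an estimate by the quantifier. The RefSeq transcript NM_145137.2 held 85.3% of Mgl2 in aberrant-marker cells and 94.2% in germline knockout cells, and the rest lay on predicted entries, of which 2 pairs have identical values in every run. The other members apart from Clec4a2 share no window of 50 bases with the genes searched. These were the 10 listed receptor genes, Clec4a4, Clec4b1, Clec4b2, Clec12b, Asgr1 and Asgr2, and no other gene was searched.

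Counted by the rule of size, the aberrant-marker library had 2 of 9 receptors called higher than in the conditional control (Mgl2 and Clec10a) and 1 called lower (Clec4n). Over all 11336 genes compared, 4.09% were called higher and 3.76% lower. All 9 receptors passed the entry filter of 1 FPKM in 2 runs, Clec10a only through the aberrant-marker library, where it had to differ. The median log2 difference of the 9 was 0.06, and that of all genes 0. Against the normal-marker library of the same line, the same 2 receptors were called higher and the same 1 lower, with backgrounds of 4.02% and 3.26%. This comparison shares the aberrant-marker library with the first.

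Normal-marker macrophages had 0 receptors called in either direction against the conditional control, where 0.935% of all genes were called higher and 0.838% lower. Clec4e at 2.81-fold lower (log2 difference -1.35), Clec4a3 at 1.43-fold higher (0.51) and Clec4d at 1.38-fold higher (0.43) were the farthest apart among the receptors over 5 FPKM. Clec4n, Clec4a2 and Clec12a lay within 1.15-fold of the conditional control. Between the 2 control libraries 0 receptors were called as well, with backgrounds of 0.935% higher and 1.17% lower in the wild type.

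The germline knockout had 2 receptors called higher than in the wild type (Mgl2 and Clec4e) and 3 called lower (Clec12a, Clec4n and Clec4a2), with 2.73% of all genes called higher and 3.36% lower. Clec4a2 and Clec12a, the 2 inhibitory receptor genes introduced above, were among the lower ones. In the aberrant-marker library neither was called against its control. Clec4n was lower and Mgl2 higher in the aberrant-marker library and in the germline knockout, each against its own control, and these comparisons share no library.

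**Figure D3:**
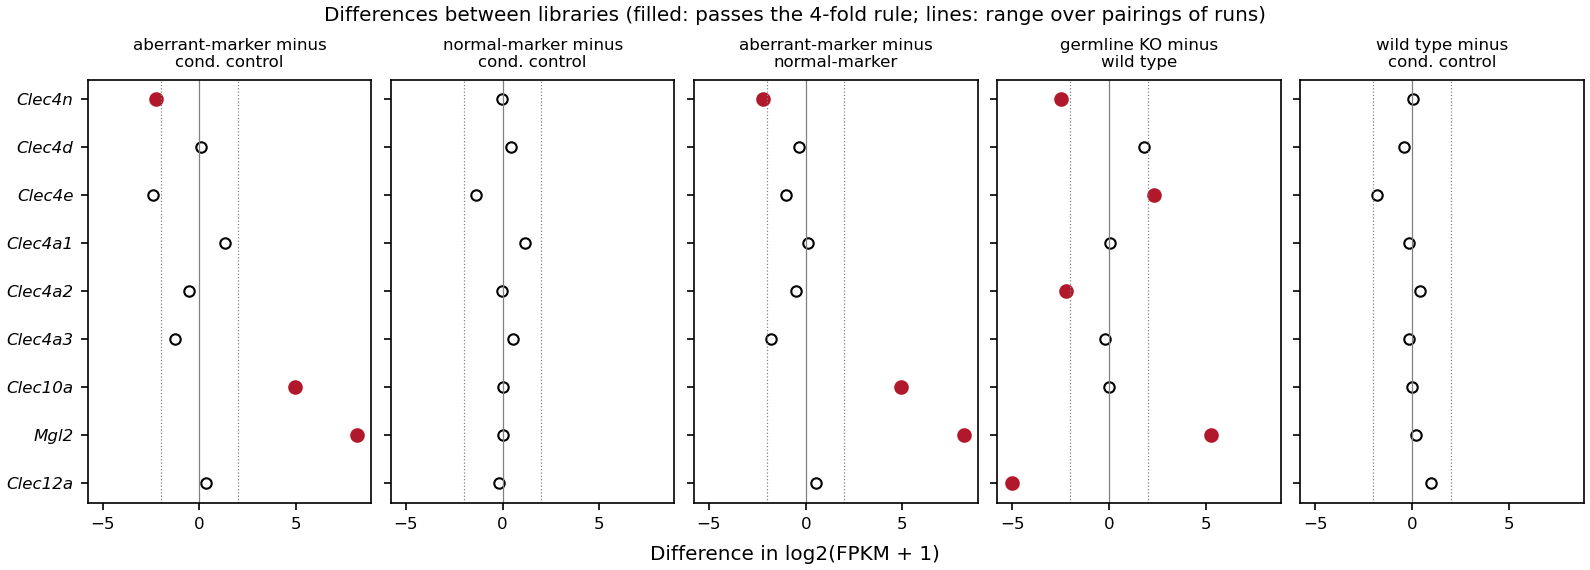
Differences of the 9 receptors (rows) in log2(FPKM + 1) for 5 comparisons (panels), with the range over pairings of runs as a line where it exceeds the point. Filled points passed the 4-fold rule and dotted lines mark the threshold; Clec4n passed it as lower, and Mgl2 as higher, in both the aberrant-marker library (-2.27 and 8.16) and the germline knockout (-2.45 and 5.29), and no point is filled for the normal-marker library or the wild type against the conditional control.

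Markers of other cell types differed between the same libraries. The summed level of 20 dendritic cell markers was 8440 to 8800 FPKM for aberrant-marker cells. It was 943 to 972 FPKM in the normal-marker and 820 to 846 FPKM in the conditional control library. In the germline knockout it was 1138 to 1509 FPKM, against 909 to 918 FPKM in the wild type. The wide span of the germline knockout came from Bst2, at 103.9 and 489.7 FPKM in its runs. Bst2 also differed between the aberrant-marker runs, at 421.9 and 112.0 FPKM. Of the 20 markers, 19 passed the entry filter. Cd209a, Flt3 and Itgae, 3 of them, passed only through the aberrant-marker library, where they had to be higher. In that library 12 were called higher than in its control, Cd209a and Flt3 among them, against 4.09% of all genes. There 18 of 20 were at 1 FPKM or more, with Siglech and Xcr1 under 0.01 FPKM. In the germline knockout 4 were called higher (Ccl17, Ccl22, Ccl5 and Ccr7), against 2.73% of all genes. Cd209a was listed at 0 there and Flt3 averaged 0.667 FPKM. Irf4 and Fscn1, listed at 0 in the wild type, averaged 12.7 and 9.52 FPKM in the germline knockout, under the floor. The 15 T cell markers summed to 291.7 to 293.5 FPKM in the aberrant-marker library. They summed to 4.76 to 5.80 FPKM in the normal-marker and 3.03 to 3.30 FPKM in the conditional control library. In the germline knockout they reached 41.6 to 41.9 FPKM, nearly all Il7r, against 0.606 to 0.640 FPKM in the wild type. Their part in the levels of Mgl2, Clec10a and Clec4n was not tested. Of 14 neutrophil markers, Ly6g, Retnlg, Camp, Ngp, Ltf, Mpo and Elane were under 0.01 FPKM in every library, as were all 6 B cell markers. Together the 14 neutrophil markers summed to 11.2 to 20.7 FPKM in the aberrant-marker library. Their sum was 78.9 to 83.5 FPKM in the normal-marker and 64.3 to 69.6 FPKM in the conditional control library. It was 46.2 to 56.4 FPKM in the germline knockout, against 41.8 to 43.0 FPKM in the wild type. Mmp8 was called lower in the aberrant-marker library (1.54 against 43.7 FPKM) and in the germline knockout (0.782 against 27.0 FPKM), each against its own control. S100a8 was called higher in the germline knockout (43.7 against 4.83 FPKM). The 19 monocyte-derived and interstitial macrophage markers summed to 1450 to 1453 FPKM in the aberrant-marker library. They summed to 2240 to 2253 FPKM in the normal-marker and 785 to 794 FPKM in the conditional control library. In the germline knockout they summed to 3148 to 3167 FPKM, against 794 to 806 FPKM in the wild type. Ly6c2, Vcan, Cd163, Folr2 and Lyve1 were under 0.01 FPKM in all 5 libraries. Spp1 alone averaged 262 FPKM in the aberrant-marker, 1756 in the normal-marker and 457 FPKM in the conditional control library. It averaged 2234 FPKM in the germline knockout, against 455 FPKM in the wild type. Of the 19 alveolar macrophage markers, 13 were called lower and 0 higher in the aberrant-marker library, against 3.76% and 4.09% of all genes. In the germline knockout 10 were called lower and 1 higher (Chil3), against 3.36% and 2.73% of all genes. The 19 markers summed to 10091 to 10250 FPKM in the aberrant-marker library. Their sum was 41570 to 41892 FPKM in the normal-marker and 23633 to 24412 FPKM in the conditional control library. It was 51317 to 51511 FPKM in the germline knockout, against 24375 to 24777 FPKM in the wild type. Chil3 alone averaged 8291 FPKM in the aberrant-marker, 27735 in the normal-marker and 9166 FPKM in the conditional control library. In the germline knockout it averaged 46574 FPKM, against 9278 FPKM in the wild type. The higher sums of the normal-marker and germline knockout libraries thus rested on this gene. The 21 dissociation and immediate early response genes summed to 2298 to 2303 FPKM in the aberrant-marker library. They summed to 721 to 723 FPKM in the normal-marker and 824 to 832 FPKM in the conditional control library. In the germline knockout they summed to 1361 to 1368 FPKM, against 1136 to 1153 FPKM in the wild type. How far any of these lists bears on the receptor levels was not tested.

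Adaptor genes of the activating receptors were present in every library. Fcer1g, the adaptor of Dectin-2, MCL and Mincle, averaged 648 FPKM in the aberrant-marker, 1642 in the normal-marker and 1739 FPKM in the conditional control library, and 1418 FPKM in the germline knockout, against 1225 FPKM in the wild type. Tyrobp, a related adaptor, averaged 693 FPKM in the aberrant-marker, 1735 in the normal-marker and 1899 FPKM in the conditional control library, and 1098 FPKM in the germline knockout, against 1439 FPKM in the wild type. Both were lowest in the aberrant-marker library, by -1.42 and -1.45 on the log2 scale from its control, and neither was called in any comparison. Syk averaged 33.4 FPKM in the aberrant-marker, 54.4 in the normal-marker and 64.4 FPKM in the conditional control library, and 69.5 FPKM in the germline knockout, against 59.7 FPKM in the wild type, also with no call.

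Card9, the scaffold between Syk and NF-kappaB, was listed at 0 in both aberrant-marker runs. It was at 42.6 and 39.6 FPKM in the normal-marker and 6.96 and 9.66 FPKM in the conditional control library, and at 10.2 and 7.55 FPKM in the germline knockout, against 7.25 and 9.85 FPKM in the wild type. It was called lower in the aberrant-marker than in the normal-marker library, and was under the floor against the conditional control. Its partner Malt1 averaged 22.9 FPKM in the aberrant-marker, 15.2 in the normal-marker and 1.30 FPKM in the conditional control library, and 29.3 FPKM in the germline knockout, against 1.08 FPKM in the wild type, and was called higher in the aberrant-marker library and in the germline knockout.

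Of the 38 genes of the activating chain, 37 passed the entry filter. In the aberrant-marker library 9 were called higher than in the conditional control and 3 lower, and in the germline knockout 2 were called higher than in the wild type (Blnk and Malt1) and 1 lower, beside the same backgrounds over all genes as above. The higher genes of the aberrant-marker library were led by the NF-kappaB subunit gene Relb (288 against 10.7 FPKM in the conditional control), the adaptor gene Blnk (28.7 against 0.221 FPKM), the kinase gene Map3k14 (44.7 against 1.40 FPKM) and Nfkb2 (207 against 19.1 FPKM). Those lower included the phospholipase gene Plcg2 (5.70 against 41.7 FPKM) and the kinase gene Mapk14 (14.0 against 83.4 FPKM). Relb is also one of the dendritic cell markers counted above. The median log2 difference of the list was 0.30 in the aberrant-marker library and -0.11 in the germline knockout, and that of all genes was 0 in both comparisons. In the normal-marker library 0 of the 37 were called against the conditional control. Malt1 and Blnk were higher there by 2.81 and 2.47 on the log2 scale, but under the floor of 20 FPKM. Card9 was higher by 2.18, but not 4-fold in each pairing of runs. Trim62 and Rel differed by -2.77 and -2.30, also under the floor.

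**Figure D4:**
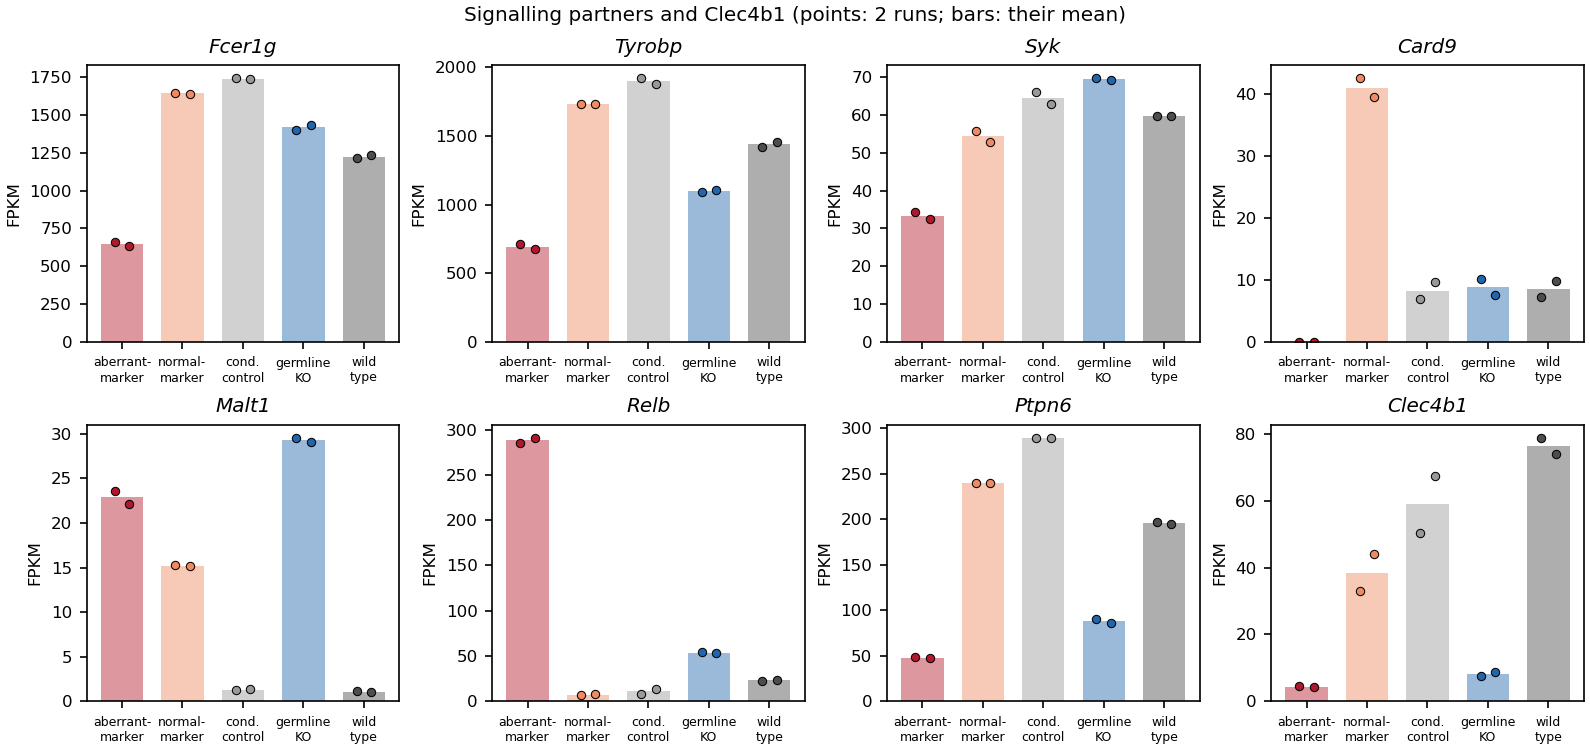
Levels (y axis, FPKM, a separate scale for each gene) of the adaptors Fcer1g and Tyrobp, of Syk, Card9, Malt1, Relb and Ptpn6, and of the activating receptor gene Clec4b1, in the aberrant-marker, normal-marker, conditional control, germline knockout and wild-type libraries. Points are the 2 runs of each library and bars their mean; Card9 was listed at 0 in the aberrant-marker library, and Ptpn6 averaged 47.97 FPKM there, against 289.5 FPKM in the conditional control.

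Ptpn6, the phosphatase gene SHP-1 that inhibitory receptors recruit, averaged 47.97 FPKM in the aberrant-marker, 240.2 in the normal-marker and 289.5 FPKM in the conditional control library, and 88.1 FPKM in the germline knockout, against 196.2 FPKM in the wild type. It was called lower in the aberrant-marker library (log2 difference -2.57) and not in the germline knockout (-1.15). Of the 16 measured genes of the inhibitory chain, 3 were called lower in the aberrant-marker library and 1 higher, against 3.76% and 4.09% of all genes. The other lower ones were the sialic acid receptor gene Siglece, listed at 0 against 38.1 FPKM in the conditional control, and the collagen receptor gene Lair1 (6.26 against 38.6 FPKM). The higher one was the ubiquitin ligase gene Cblb (58.1 against 1.32 FPKM). In the germline knockout 1 was called lower, Siglece, at 2.66 FPKM, against 21.1 FPKM in the wild type, where 3.36% of all genes were called lower. Between the normal-marker and conditional control libraries the adaptor genes Dok1 and Dok2 were called lower, and they were also called lower in the wild type than in the conditional control, together with the phosphatase gene Inpp5d. The median log2 difference of the 16 genes was -0.95 in the aberrant-marker library and -0.08 in the germline knockout.

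Chemokine genes that signalling through these receptors can induce were among the genes called higher in the aberrant-marker and germline knockout libraries. Whether the receptors bear on their levels was not tested. Of 20 measured cytokine and chemokine genes, 13 passed the entry filter. The aberrant-marker library alone brought in 2 of them and the germline knockout alone 1, none of which was called. Of the 13, 3 were called higher in the aberrant-marker library than in the conditional control, against 4.09% of all genes. They were Ccl22 (2002 against 2.85 FPKM), Ccl17 (1717 against 4.58 FPKM) and Ccl2 (75.5 against 0.0755 FPKM). In the germline knockout 6 were called higher than in the wild type, against 2.73% of all genes. The 6 were led by Ccl2 (242.8 against 0.0824 FPKM), Ccl17 (161.5 against 0.296 FPKM), Ccl3 (162.0 against 0.389 FPKM) and Ccl22 (128.4 against 0.140 FPKM). Ccl3 was also called lower in the wild type than in the conditional control, where it averaged 22.95 FPKM. In the normal-marker library 0 were called against the conditional control. Ccl17 and Ccl22 are made by dendritic cells too and are among the dendritic cell markers above.

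The other C-type lectin genes gave a wider view of the family. Of 50 measured, 24 passed the entry filter, 6 of them only through the aberrant-marker library. In that library 3 were called higher than in the conditional control and 5 lower, against 4.09% and 3.76% of all genes. Cd209a and Cd72, among the 3, are also among the 6 and could only be higher. The count of higher genes therefore cannot be weighed against that background. The higher ones were Cd209a, a DC-SIGN relative of dendritic cells (108.8 FPKM, listed at 0 in the other 4 libraries), Cd72, an inhibitory receptor best known from B cells (26.4 FPKM, far under 1 read elsewhere), and Clec2i (21.2 FPKM, against 0.0220 FPKM in the conditional control). The 4 largest falls were of the scavenger receptor gene Olr1 (2.38 against 58.4 FPKM), Clec4b1, the collectin gene Colec12 (1.49 against 21.9 FPKM) and Clec1b, the gene of the Syk-coupled receptor CLEC-2 (5.33 against 47.7 FPKM). The mannose receptor gene Mrc1, an alveolar macrophage marker, was the fifth. In the germline knockout 1 was called higher than in the wild type, Cd93 (41.7 against 1.73 FPKM), and 1 lower, Clec4b1. Of all genes, 2.73% were called higher there and 3.36% lower. Cd93 also averaged 19.6 FPKM in the normal-marker and 10.4 FPKM in the aberrant-marker library, against 1.06 FPKM in the conditional control. Clec2i averaged 12.4 FPKM in the germline knockout and was listed at 0 in the wild type. These differences were not called because the higher mean was under the floor of 20 FPKM.

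Profiles over the 5 libraries were compared with those of 5333 other genes, by the root mean square distance of the centred log2(FPKM + 1) means, as a description of 5 points without a test. Nearest to Clec4n were Itgal (distance 0.096), Cpne8 (0.15) and Rgs2 (0.15). Itgal, the gene of an integrin chain, averaged 14.7 FPKM in the aberrant-marker, 70.6 in the normal-marker and 62.3 FPKM in the conditional control library, and 13.6 FPKM in the germline knockout, against 75.0 FPKM in the wild type. The nearest to Clec4a2 were Fcho2 (0.046), F11r (0.080) and Flii (0.11), those to Clec4e were Mrps2 (0.20), Ipo4 (0.29) and Hcst (0.36), and those to Clec12a were Tsr3 (0.15), Brf1 (0.18) and Cdpf1 (0.20). Like Clec12a, Tsr3, Brf1 and Cdpf1 were absent or near absent from the germline knockout, at 0.223, 0.0309 and 0 FPKM. In the wild type they averaged 40.6, 24.3 and 36.6 FPKM. Mgl2 was closest to C1qa (0.22), a complement gene listed at 0 in the normal-marker and both control libraries, at 193 FPKM in the aberrant-marker library and at 33.6 FPKM in that of the germline knockout. Its next neighbours were Plbd1 (0.46) and Ccl5 (0.47). Clec10a was closest to Htr7 (0.0017), Adam19 (0.0084) and Lck (0.020), all at 29.4 to 29.7 FPKM in the aberrant-marker library and at most 0.0329 FPKM in any other. With Clec10a also at or near 0 elsewhere, these distances say only that the genes had a like level in that library.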

How the data were processed

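The members and gene lists were chosen with earlier results of these data known. Per the labels' protocols, 100 pg of RNA a sample were amplified with a SMARTer kit over 18 PCR cycles and made into libraries with an Ovation kit; molecular identifiers and strand are not mentioned. The authors deposited FPKM for 45913 RefSeq transcripts; Bowtie 1.1.2 and eXpress 1.5.1 are named, per the submitters' processing notes. For the authors' build and filters, none is given in the sources used here. Exact 0 is reported as listed at 0. Gene values are sums over the transcripts of an Entrez entry, averaged over the 2 runs of a library; log2 values carry a pseudocount of 1 FPKM, and the 11336 genes that reached 1 FPKM in 2 or more runs were compared (Python 3.11.15, pandas 2.3.3). Depth was estimated from single-transcript genes over 1500 bases. All 10 columns matched a sample title. No test was possible between single libraries. All members were named in every comparison, with up to 4 called genes of each list, the 6 genes Fcer1g, Tyrobp, Syk, Card9, Ptpn6 and Bach2, and 3 nearest profiles; other genes were named after their values were seen. A gene that this rule names is not reported here. Sequences came from GENCODE M21 and RefSeq tables of GRCm38.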

Additional observations from a re-analysis of the deposited data

Results flagged for a closer look

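For 3 receptors, at least 1 conditional knockout library and the germline knockout moved in opposite directions from their own controls in every run, and the differences between the effects were not tested. Clec4e was lower in the aberrant-marker library than in the conditional control (2.52 against 17.4 FPKM) and higher in the germline knockout than in the wild type (25.2 against 4.29 FPKM), so that the effects differed by -4.69 on the log2(FPKM + 1) scale. Its effect in the normal-marker library (6.18 against 17.4 FPKM in the conditional control) differed from that of the germline knockout by -3.66. The control libraries differed 4.05-fold in Clec4e, which moves with both values. Clec12a was higher in the aberrant-marker library than in the conditional control (19.9 against 15.5 FPKM) and lower in the germline knockout than in the wild type (0.0268 against 32.0 FPKM), a difference of 5.34. That opposite direction turns with the control, as the aberrant-marker library was below the wild type in Clec12a (-0.66), and the normal-marker library was below the conditional control (-0.19), as the germline knockout was below the wild type. Clec4a3 was higher in the normal-marker library than in the conditional control (336 against 235 FPKM) and lower in the germline knockout than in the wild type (183 against 212 FPKM), a difference of 0.72. In the aberrant-marker library Clec4a3 was lower than in the conditional control (-1.26), the direction of the germline knockout (-0.21).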

How the results depend on the processing

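Clec4n, Mgl2 and Clec10a kept their calls in the aberrant-marker library, and Clec4n and Mgl2 theirs in the germline knockout, under every alternative tried (pseudocounts of 0.1 and 5 FPKM, scaling to a common total or by median ratios, the highest transcript alone, a 2-fold threshold, a floor of 5 FPKM, no filter, the other control library, and each run left out). The number of receptors called lower in the aberrant-marker library was 2 in place of 1 with scaling to a common total or a floor of 5 FPKM, which added Clec4e, and with a 2-fold threshold, which added Clec4a3; the last also gave 2 against the normal-marker library. For the germline knockout, a pseudocount of 5 FPKM left 1 receptor called higher, Mgl2. With the conditional control in place of the wild type, 1 was called higher (Mgl2) and 1 lower (Clec4n). Clec4e (0.51) and Clec4a2 (-1.81) then fell short of 4-fold, and Clec12a (-4.01) missed the floor of 20 FPKM. No called difference changed sign, and leaving out each run in turn left between 0 and 3 receptors called in each direction, as with all runs. The other counts of called receptors stayed within 1.5 times their values. Over all genes, scaling to a common total gave 205 higher and 206 lower for the normal-marker library, against 106 and 95, and 230 and 265 between the control libraries, against 106 and 133. It gave 627 lower for the germline knockout, against 381, and 562 lower for the aberrant-marker against the normal-marker library, against 369. With the wild type as control, 164 were lower in the normal-marker library, against 95. A pseudocount of 5 FPKM gave 52 and 55, and 52 and 72, and lower thresholds or floors gave more. No paired analysis was possible because the sample numbers in the titles differ between all samples. With 1 library a group, the spread between mice is unknown, and near 0 the depth does not separate absence from 1 or 2 reads.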
